A study of Homo sapiens with 12 samples.

Results

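The 106 genes described here carry a numbered LINC symbol, the name given to long intergenic noncoding RNAs, and were detected in the established human colon carcinoma line RKO. RefSeq now lists 8 of them as protein-coding and LINC01296 as a transcribed pseudogene, and 13 overlap a coding gene. They were chosen by 1 rule on the reads themselves: a symbol of LINC followed by digits, and at least 100 reads summed over the 12 libraries. The count files listed 26364 genes, of which 878 had such a symbol. Of these, 546 had no read in any library, 226 had between 1 and 99 reads, and 106 met the minimum. All 106 also passed the filter on low counts, which left 12858 genes of every kind to be tested. The members with the fewest reads were LINC00482 with 102, LINC01599 with 103 and LINC01125 with 107, and just below the minimum stood LINC01137 with 98, LINC01126 with 96 and LINC00685 with 95. For 7 members (LINC01140, LINC00926, LINC00471, LINC00921, LINC01125, LINC01599 and LINC00482) the libraries outside their highest group would not have reached 100 reads, so that the rule favoured a difference between groups for them.

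Polyadenylated RNA had been sequenced with a stranded kit from 6 groups of 2 libraries. The groups were wild-type RKO cells (WT), the CRISPR/Cas9 PRDM1 knockout derivatives KO2 and KO5, and RKO derivatives overexpressing GFP, the alpha form of PRDM1 or the beta form. Separate cultures within a group are not named in the labels, nor is it said whether a knockout derivative is 1 clone. The p-values therefore reflect the variation among the sequenced libraries alone, and that variation may be technical. The PRDM1 product is a zinc finger transcription factor, best characterised as a repressor in B lymphocytes. The design addresses which RNAs change in RKO cells without it or with an excess of it.

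Long noncoding RNAs are transcripts made by RNA polymerase II, usually spliced and polyadenylated, that have no long open reading frame. Many are present at low levels, vary widely between cell types, and are transcribed close to a protein-coding gene whose promoter region they can share. A LINC number says only that the gene lies between or beside coding genes and had no function assigned when it was named. Several have since been renamed for a role, and others were found to encode small proteins.

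PRDM1 itself had 4 and 4 reads in wild-type cells, 0 and 1 in KO2, 1 and 1 in KO5, and 2 and 6 with GFP, against 11475 and 9681 with alpha and 22395 and 28423 with beta. The overexpression labels were thus matched by the counts, while the level in wild-type cells was too low to test the knockouts, and reads over the whole gene do not test the edited site. Gene counts per library ran from 19058967 to 55961821, and a transcript with 0 reads in the shallowest library could stand at up to 0.157 CPM (a gene's reads as a share of all reads counted on genes in that library, in parts per 1000000), taking 3 counts as the floor. Of the epithelial markers, KRT8 (493 to 799 CPM), KRT18 (299 to 376 CPM) and CDX2 (12.8 to 17.5 CPM) were present, and the other 7 of the 10 were absent or nearly so: EPCAM, CDH17 and CDX1 had 0 reads in every library, KRT19, KRT20 and CDH1 at most 1, and VIL1 at most 2. The 4 leukocyte markers summed to 0.035 CPM at most and the 3 endothelial markers to 0.127 CPM at most. The 5 fibroblast markers summed to 8.37 to 13.0 CPM, with COL1A1 at 5.03 to 10.0 CPM and DCN at 0 reads.

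The LINC transcripts were a small and uneven share of the RNA. Together they took 1041 to 1195 CPM per library, and 1 of them, LINC00657, held 36.7% to 41.0% of these reads. LINC00657, now called NORAD, is an abundant RNA that binds PUMILIO proteins. It had 421 and 429 CPM in wild-type cells, 386 and 384 in KO2, 438 and 452 in KO5, 450 and 417 in GFP cells, 453 and 456 in alpha cells and 457 and 467 in beta cells. Its level was lower in both KO2 libraries than in any other library, by a log2 fold change of -0.11 ± 0.03 (SE) against wild type (adjusted p = 0.00413, edgeR quasi-likelihood test with Benjamini-Hochberg adjustment over all genes tested). That call was lost without wild-type replicate 2 (adjusted p = 0.0526), and its difference between alpha and GFP (0.08 ± 0.03, adjusted p = 0.0457) did not hold on leaving out GFP replicate 2, alpha replicate 1 or alpha replicate 2 (adjusted p = 0.645, 0.142 and 0.141).

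Mean levels over the 12 libraries ran from 0.272 to 434 CPM with a median of 1.73 CPM. Only 18 members reached 10 CPM and 38 stayed under 1 CPM. The median member had 646.5 reads in all, against 11877 for all genes tested. After LINC00657 the most reads belonged to LINC00998, LINC00152, LINC01000, LINC00674, LINC00493, LINC01578, LINC01128, LINC00667 and LINC01296. Reads of LINC00152, LINC01296, LINC01106, LINC01123, LINC01138 and LINC00623 are uncertain, since near-identical copies of these genes exist and the handling of reads that match several copies is unknown. Because CPM is not scaled by length, levels are compared here between groups for a transcript and not between transcripts.

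The better measured members differed in how far their levels varied between groups. Of the 44 members with more than 1000 reads, the highest and lowest group means were within 1.5-fold for 24, between 1.5-fold and 2-fold for 9, and 2-fold or more apart for 11. The matching shares of all tested genes are not given here. A member within 1.5-fold could still be called between groups, as LINC00152 was with alpha and with beta. LINC01578, now CHASERR, a transcript beside CHD2 that restrains it, stood at 31.8 and 32.0 CPM in wild type and between 29.1 and 36.3 CPM in the other libraries. The 11 that differed most were LINC00326, LINC01534, LINC00173, LINC00883, LINC01468, LINC00641, LINC01123, LINC00664, LINC00346, LINC01116 and LINC00857.

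The promoters of LINC00665, LINC01234, LINC01534 and LINC00460 are shown because, of the 11 members that fell in a knockout derivative and rose with a PRDM1 form, these had the largest falls. They are RefSeq sequences of build GRCh38.p14, from 250 bases before to 50 after the annotated start, written 5′ to 3′ on the strand of the transcript, with GAAAG, the core of the PRDM1 motif, and its reverse complement CTTTC in capitals. LINC00665 is at chr19:36331669-36331968 (minus strand), LINC01234 at chr12:113773634-113773933 (minus), LINC01534 at chr19:36687400-36687699 (minus) and LINC00460 at chr13:106376314-106376613 (plus).
LINC00665: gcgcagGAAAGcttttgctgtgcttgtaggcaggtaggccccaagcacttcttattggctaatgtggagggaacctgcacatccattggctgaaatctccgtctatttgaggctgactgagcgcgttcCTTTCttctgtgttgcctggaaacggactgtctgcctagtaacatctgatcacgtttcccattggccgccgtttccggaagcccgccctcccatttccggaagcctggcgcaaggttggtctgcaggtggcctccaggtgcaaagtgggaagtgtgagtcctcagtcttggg
LINC01234: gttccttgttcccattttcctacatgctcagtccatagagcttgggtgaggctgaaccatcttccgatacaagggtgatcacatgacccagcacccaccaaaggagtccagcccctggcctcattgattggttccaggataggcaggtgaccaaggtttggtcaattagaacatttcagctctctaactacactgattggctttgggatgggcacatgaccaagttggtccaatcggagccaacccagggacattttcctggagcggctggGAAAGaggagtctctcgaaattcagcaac
LINC01534: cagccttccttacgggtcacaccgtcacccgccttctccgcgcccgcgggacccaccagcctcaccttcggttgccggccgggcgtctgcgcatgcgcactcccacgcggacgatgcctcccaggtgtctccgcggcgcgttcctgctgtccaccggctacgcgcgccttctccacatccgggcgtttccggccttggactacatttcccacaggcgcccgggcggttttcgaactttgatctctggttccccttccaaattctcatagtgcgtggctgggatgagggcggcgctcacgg
LINC00460: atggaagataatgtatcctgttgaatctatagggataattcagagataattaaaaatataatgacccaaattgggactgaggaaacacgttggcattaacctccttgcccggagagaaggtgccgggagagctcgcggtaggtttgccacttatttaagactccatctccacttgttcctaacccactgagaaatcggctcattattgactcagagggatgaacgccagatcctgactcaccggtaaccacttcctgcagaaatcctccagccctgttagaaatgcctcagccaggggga
The LINC00665 promoter held 1 GAAAG and 1 CTTTC, LINC01234 held 1 GAAAG, and those of LINC01534 and LINC00460 held neither. Among the other members of the 11 with a RefSeq promoter, LINC00346 held 1 GAAAG, LINC00664 and LINC00667 held 1 CTTTC each, LINC01468 held 4 CTTTC, and LINC00657 and LINC00674 held neither. RefSeq gave a promoter for 81 of the 106 members. Of these, 42 (51.9%) held GAAAG on either strand, beside 54.9% of all 27305 promoters of the same length, and 13 (16.0%) held GAAAGT, which contains it, on either strand, beside 13.4%. A match is a string of letters and not a bound site.

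LINC00665, a transcript of chromosome 19 studied in carcinomas, was nearly absent from both knockout derivatives. It had 56 and 82 reads in wild type (1.53 and 1.47 CPM), 2 and 1 in KO2, 0 and 0 in KO5, 30 and 45 with GFP (1.18 and 1.64 CPM), 93 and 84 with alpha (3.95 and 4.17 CPM) and 37 and 55 with beta (1.94 and 2.28 CPM). No knockout library came near a wild-type one, and every alpha and beta library lay above both GFP libraries. The level was 39.6-fold lower in KO2 than in wild type, with a 95% exact counting interval of 13.3 to 194 from only 3 reads, and at least 29.2-fold lower in KO5, taking 3 counts over the group as the floor (adjusted p = 3.89e-13 and 5.16e-13, edgeR). With alpha it rose by a log2 fold change of 1.52 ± 0.21 over GFP (adjusted p = 4.07e-08). With beta the change was 0.59 ± 0.24 (adjusted p = 0.0401, edgeR). That call was lost without any one of GFP replicate 1, beta replicate 1 or beta replicate 2 (log2 fold change 0.38, 0.69 and 0.45). It was also lost with the DESeq2 Wald test on all libraries (adjusted p = 0.194). In edgeR it was lost with no low-count filter (adjusted p = 0.0571) and with only the compared groups (adjusted p = 0.0532). These are bulk libraries, in which fewer cells making a transcript and less RNA per cell cannot be told apart.

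LINC01234, a chromosome 12 transcript, followed a similar order at lower counts. Its reads were 33 and 38 in wild-type cells, 1 and 4 in KO2, 1 and 2 in KO5, 18 and 14 in GFP cells, 44 and 36 in alpha cells and 24 and 29 in beta cells. Both knockouts lay below every other library once depth is taken into account, and alpha and beta lay above GFP. It was 12.2-fold lower in KO2 (95% counting interval 5 to 38.8) and 15-fold lower in KO5 (4.93 to 74.5, from 3 reads), with adjusted p = 1.47e-07 and 2.35e-07 in edgeR. Against GFP it rose by 1.60 ± 0.32 on the log2 scale with alpha (adjusted p = 3.32e-05) and by 1.02 ± 0.34 with beta (adjusted p = 0.012). The beta call was lost without GFP replicate 2, beta replicate 1 or beta replicate 2 (log2 fold change 0.80, 0.99 and 1.05). It was also lost with the DESeq2 Wald test on all libraries (adjusted p = 0.0937).

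LINC01534 gave the same order with more reads. It is now named ZNF567-DT, a divergent transcript that overlaps the zinc finger gene ZNF567 on the opposite strand. Its levels were 5.78 and 7.06 CPM in wild-type cells, 2.34 and 2.02 in KO2, 2.83 and 3.04 in KO5, 6.37 and 5.93 in GFP cells, 15.2 and 16.0 in alpha cells and 13.2 and 11.4 in beta cells. None of the knockout or overexpression values overlapped those of their controls. The log2 fold changes were -1.53 ± 0.14 in KO2 and -1.12 ± 0.14 in KO5 against wild type, and 1.35 ± 0.11 with alpha and 1.00 ± 0.12 with beta against GFP (adjusted p = 1.08e-13, 7.51e-10, 1.19e-14 and 5.75e-10, edgeR). Whether the counting used strand is not stated, so reads of LINC01534 and ZNF567 cannot be told apart.

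LINC00460, a chromosome 13 transcript also studied in carcinomas, separated the knockouts. It had 18 and 19 reads in wild-type cells, 12 and 17 in KO2, 1 and 2 in KO5, 7 and 12 in GFP cells, 38 and 31 in alpha cells and 15 and 23 in beta cells. KO2 overlapped wild type (log2 fold change -0.10 ± 0.38, adjusted p = 0.878), whereas KO5 was 7.82-fold lower than wild type (95% counting interval 2.48 to 39.6, from 3 reads, adjusted p = 0.00032, edgeR). The difference of KO5 from KO2 was itself past the threshold (adjusted p = 0.000666). Alpha raised it by 2.13 ± 0.39 over GFP, the largest rise of any member in that comparison that the naming rule took, and beta by 1.29 ± 0.43 (adjusted p = 3.31e-06 and 0.00954). The beta call was lost without GFP replicate 1 or beta replicate 2 (log2 fold change 1.01 and 1.12). It was also lost with the DESeq2 Wald test on all libraries (adjusted p = 0.0712).

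**Figure D1:**
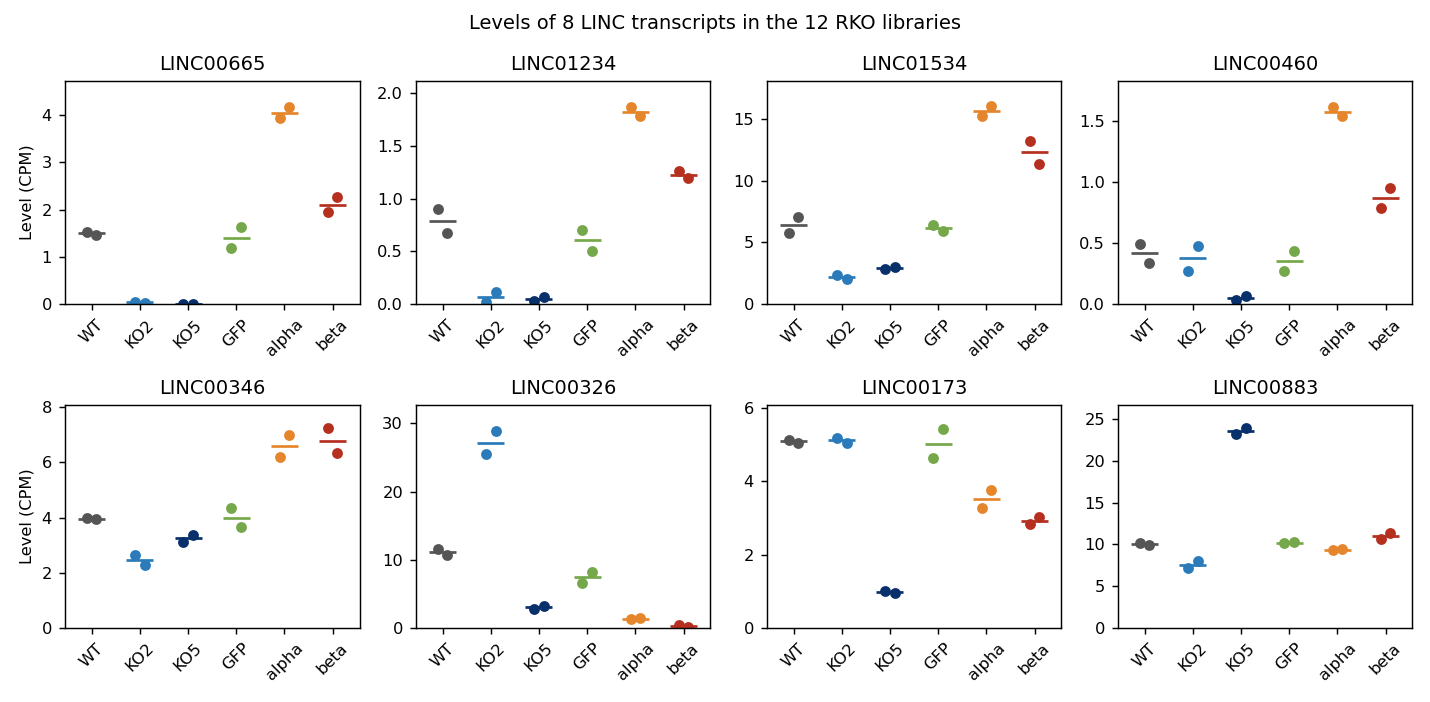
Levels of 8 LINC transcripts in CPM (vertical axis, linear, from 0) in each of the 12 libraries, by group (horizontal axis). Points are libraries and bars are the means of 2 libraries. LINC00665 and LINC01234 lie near 0 in KO2 and KO5, and LINC00326 is highest in KO2 at 25.5 and 28.9 CPM.

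Against the GFP control, alpha raised 14 of the 106 members (13.2%) and lowered 11 (10.4%), where 21.2% of all tested genes rose and 16.3% fell. The rises, with a mean of at least 1 CPM and no overlap between libraries, were led by LINC00460, LINC01234, LINC00665, LINC01534, LINC00346, LINC00999, LINC01468 and LINC01116. LINC00346, now PRECSIT, a p53-regulated transcript linked to STAT3 signalling, went from 4.33 and 3.67 CPM with GFP to 6.20 and 6.99 with alpha (log2 fold change 0.73 ± 0.14, adjusted p = 3.93e-05, edgeR). LINC01468, now LNCAROD, described as an activating regulator of the Wnt antagonist gene DKK1, went from 10.5 and 11.2 to 15.8 and 17.1 CPM (0.60 ± 0.10, adjusted p = 1.23e-06). LINC01116, whose nearest coding gene in RefSeq is MTX2 at 273412 bases, changed by 0.57 ± 0.16 and LINC00999 by 0.67 ± 0.23. Each of these calls was lost when alpha replicate 2 was left out (log2 fold change 0.38 and 0.53). The LINC00999 call was also lost without GFP replicate 1 (log2 fold change 0.46).

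The falls with alpha were led by LINC00326, LINC01138, LINC01123, LINC01481, LINC00941, LINC00173, LINC00998 and LINC00152. LINC01138 went from 2.09 and 2.11 CPM with GFP to 0.849 and 0.992 with alpha (-1.19 ± 0.28, adjusted p = 0.00036, edgeR). LINC01123 went from 8.70 and 9.89 to 5.77 and 5.26 CPM (-0.74 ± 0.13, adjusted p = 2.8e-06). LINC00152, now CYTOR, a transcript named for regulating the cytoskeleton, changed little in size (-0.22 ± 0.05, adjusted p = 0.000307) although its GFP libraries, at 69.6 and 67.9 CPM, both lay above its alpha libraries at 60.2 and 57.4 CPM. Leaving out 1 library ended the calls of LINC01481, LINC00941 and LINC00173: without alpha replicate 1 their adjusted p were 0.264, 0.0519 and 0.0994. The LINC01481 and LINC00173 calls were also lost without GFP replicate 2 (adjusted p = 0.183 and 0.105), and that of LINC00941 without GFP replicate 1 (adjusted p = 0.116). Fewer members were called lower with alpha without GFP replicate 2 or without alpha replicate 1. The matching loss of calls over all tested genes is not given here.

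Beta raised 13 members (12.3%) and lowered 13 (12.3%) against the same GFP libraries, where 22.9% of all tested genes rose and 18.0% fell. The rises included LINC01534, LINC00346, LINC01468, LINC01234, LINC00999, LINC00665, LINC01116 and LINC00938. LINC00346 reached 7.24 and 6.33 CPM with beta (0.76 ± 0.14, adjusted p = 1.45e-05, edgeR), and LINC01468 reached 14.5 and 14.5 CPM (0.42 ± 0.10, adjusted p = 0.000454). LINC00938 went from 11.1 and 11.9 CPM to 16.9 and 13.8 (0.40 ± 0.10, adjusted p = 0.000654), a call lost without beta replicate 1 (adjusted p = 0.0685). The calls of LINC00999 (0.71 ± 0.23, adjusted p = 0.0105) and LINC01116 (0.53 ± 0.16, adjusted p = 0.00708) were lost without beta replicate 2 (adjusted p = 0.0713 and 0.217), and that of LINC00999 also without GFP replicate 1 (adjusted p = 0.139). Neither passed with DESeq2 (adjusted p = 0.0713 and 0.0597). Fewer members were called higher with beta when beta replicate 2 was left out, and fewer lower without GFP replicate 2. The matching loss of calls over all tested genes is not given here.

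Among the falls with beta, LINC01138 reached 0.840 and 0.993 CPM (-1.17 ± 0.28, adjusted p = 0.00038, edgeR) and LINC01123 reached 5.82 and 5.59 CPM (-0.70 ± 0.12, adjusted p = 6.73e-06). LINC00173 went from 4.64 and 5.42 CPM with GFP to 2.83 and 3.02 (-0.77 ± 0.17, adjusted p = 7.99e-05). LINC01204, an X-linked transcript under the level the naming rule asked for, was picked out after its values were seen: it had 16 and 18 reads in GFP cells, 4 and 6 in alpha cells and 1 and 2 in beta cells. The beta level was 9.26-fold lower than that with GFP, with a 95% counting interval of 2.91 to 47.1 from 3 reads (adjusted p = 0.000102). The remaining named falls with beta were LINC00176, LINC01278 and LINC00641, between -0.31 and -0.43, each lost without GFP replicate 2 and without beta replicate 2 (adjusted p from 0.0517 to 0.254), and LINC00941, lost without GFP replicate 1 (adjusted p = 0.0785).

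The alpha and beta comparisons share their GFP libraries, so likeness between them is no separate support, and the forms were set against each other directly. Only 4 members (3.77%) were higher with alpha than with beta, beside 3.45% of all tested genes. They were LINC00326, LINC00665 (0.93 ± 0.20, adjusted p = 0.00117, edgeR), LINC00664 (0.62 ± 0.12, adjusted p = 0.000157) and LINC01534 (0.35 ± 0.10, adjusted p = 0.0197). No member was lower by edgeR, where 2.79% of all genes were, and none by DESeq2. At an unadjusted p under 0.05 the counts were 13 higher and 5 lower. The matching shares of all tested genes are not given here, and nothing about the members is read from these 2 counts. LINC00664, a transcript beside the zinc finger gene ZNF429, had 7.12 and 6.83 CPM in GFP cells, 9.80 and 9.22 in alpha cells and 6.40 and 5.999 in beta cells, so that alpha stood above both other groups. The call for LINC01534 was lost without alpha replicate 1, alpha replicate 2 or beta replicate 2 (adjusted p = 0.0659, 0.152 and 0.372), and with DESeq2 neither LINC01534 nor LINC00665 passed (adjusted p = 0.223 and 0.0662).

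LINC00326, a chromosome 6 transcript, showed the largest spread among the 44 members with more than 1000 reads and no single order by PRDM1 status. Its levels were 11.6 and 10.7 CPM in wild-type cells, 25.5 and 28.9 in KO2, 2.76 and 3.25 in KO5, 6.65 and 8.14 in GFP cells, 1.27 and 1.39 in alpha cells and 0.420 and 0.0827 in beta cells. The libraries of the 6 groups did not overlap. The log2 fold change against wild type was 1.33 ± 0.08 in KO2, -1.85 ± 0.14 in KO5 and -0.57 ± 0.11 with GFP (adjusted p = 1.25e-17, 1.57e-15 and 0.000217, edgeR). Against GFP, alpha was at -2.47 ± 0.23 (adjusted p = 9.42e-14) and beta at -4.97 ± 0.52 (adjusted p = 8.07e-18). The beta libraries held 8 and 2 reads, which put the fall at 32.1-fold with a 95% counting interval of 17.3 to 67.5. The difference between alpha and beta, 2.50 ± 0.55, was lost when beta replicate 2 was left out (1.65, adjusted p = 0.0659).

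In KO2, 3 members (2.83%) were higher than in wild type and 21 (19.8%) lower, beside 15.1% and 14.9% of all tested genes. The 3 rises were LINC00326, LINC00641 and LINC00115. LINC00641 had 13.97 and 14.8 CPM in wild type and 22.8 and 21.0 in KO2 (0.64 ± 0.07, adjusted p = 7.89e-11, edgeR). The LINC00115 rise was lost without wild-type replicate 1 or KO2 replicate 2 (adjusted p = 0.135 and 0.0683). The falls after LINC00665 and LINC01534 were LINC01355, LINC00959, LINC00857, LINC00664, LINC00346 and LINC00467, together with LINC01234, which lay under the level of the naming rule. LINC00664 went from 6.14 and 6.09 CPM to 3.73 and 3.79 (-0.66 ± 0.11, adjusted p = 3.25e-06), LINC00467 from 4.82 and 4.50 to 2.93 and 2.89 (-0.63 ± 0.13, adjusted p = 9.26e-05), and LINC00346 from 3.97 and 3.95 to 2.64 and 2.27 (-0.64 ± 0.14, adjusted p = 0.000249). The LINC01355 and LINC00959 calls were lost without KO2 replicate 1 (adjusted p = 0.201 and 0.281), and those of LINC00959 and LINC00857 without wild-type replicate 2 (adjusted p = 0.253 and 0.0576).

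In KO5, 17 members (16.0%) were higher than in the same wild-type libraries and 19 (17.9%) lower, beside 25.2% and 25.9% of all tested genes. LINC00883, now DUBR, led the rises: it stood at 10.1 and 9.88 CPM in wild-type cells, 7.19 and 7.98 in KO2 and 23.2 and 23.9 in KO5, with 9.34 to 11.3 CPM in the GFP, alpha and beta libraries. Its change in KO5 was 1.26 ± 0.07 (adjusted p = 3.45e-20, edgeR), and no KO5 library overlapped any other. LINC01116 (0.69 ± 0.14), LINC01123 (0.47 ± 0.09), LINC00998 (0.50 ± 0.04) and LINC00963 (0.47 ± 0.10) rose as well. LINC01021, now PURPL, a p53 target that restrains p53, was at 1.59 and 1.48 CPM in wild type and 2.26 and 2.38 in KO5 (0.63 ± 0.19, adjusted p = 0.00391), a call lost without wild-type replicate 2 (adjusted p = 0.053). The LINC01106 rise was lost without wild-type replicate 2 or KO5 replicate 1 (adjusted p = 0.276 and 0.386), and the LINC00857 rise without KO5 replicate 2 or wild-type replicate 1 (adjusted p = 0.137 and 0.0504).

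The falls in KO5 were led by LINC00665, LINC00173, LINC00326, LINC01534, LINC00669, LINC00999, LINC00959 and LINC01468, with LINC01234 and LINC00460 at lower levels. LINC00173 had 5.12 and 5.06 CPM in wild-type cells, 5.19 and 5.06 in KO2 and 0.999 and 0.945 in KO5, a fall of -2.35 ± 0.21 (adjusted p = 7.53e-16, edgeR) that KO2 did not show (0.05 ± 0.11, adjusted p = 0.78). LINC01468 went from 10.2 and 9.99 CPM to 4.89 and 6.72 (-0.77 ± 0.11, adjusted p = 2.33e-08). The LINC00669 call was lost without KO5 replicate 1 or replicate 2 (adjusted p = 0.122 and 0.0524), and that of LINC00959 without wild-type replicate 2 or KO5 replicate 1 (adjusted p = 0.238 and 0.453). Fewer members were called lower in KO5 without wild-type replicate 2 or KO5 replicate 2, and fewer higher without KO5 replicate 2. The matching loss of calls over all tested genes is not given here.

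With the knockout derivatives set directly against each other, 27 members (25.5%) were higher in KO5 and 19 (17.9%) lower. Both shares were below those of all tested genes, at 26.9% and 28.1%. The largest rises from KO2 to KO5 were LINC00883 (1.63 ± 0.08, adjusted p = 2.45e-23, edgeR), LINC01106 (1.61 ± 0.32, adjusted p = 1.8e-05), LINC00857 (1.21 ± 0.18, adjusted p = 1.36e-07) and LINC01116 (1.07 ± 0.15, adjusted p = 6.23e-08). The largest falls were LINC00326 (-3.18 ± 0.14, adjusted p = 1.82e-25) and LINC00173 (-2.40 ± 0.21, adjusted p = 3.42e-16). LINC00857 ran below wild type in KO2 (1.75 and 1.43 CPM against 2.49 and 2.86) and above it in KO5 (3.43 and 4.09 CPM).

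GFP against wild type set 2 lines with neither a knockout nor an excess of PRDM1 side by side. Being only 1 pair, it does not measure how far a knockout derivative differs from wild type apart from PRDM1. Here 2 members (1.89%) were higher and 4 (3.77%) lower, beside 8.81% and 10.2% of all tested genes, and none differed by 2-fold. LINC00888, a snoRNA host now named SNHG33, and LINC00998 were higher, and LINC01355, LINC00326, LINC01521 and LINC01000 were lower. Every one of these calls apart from that of LINC00326, for which DESeq2 gave no adjusted p, was lost under some alternative, and DESeq2 called 1 member higher and 1 lower.

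**Figure D2:**
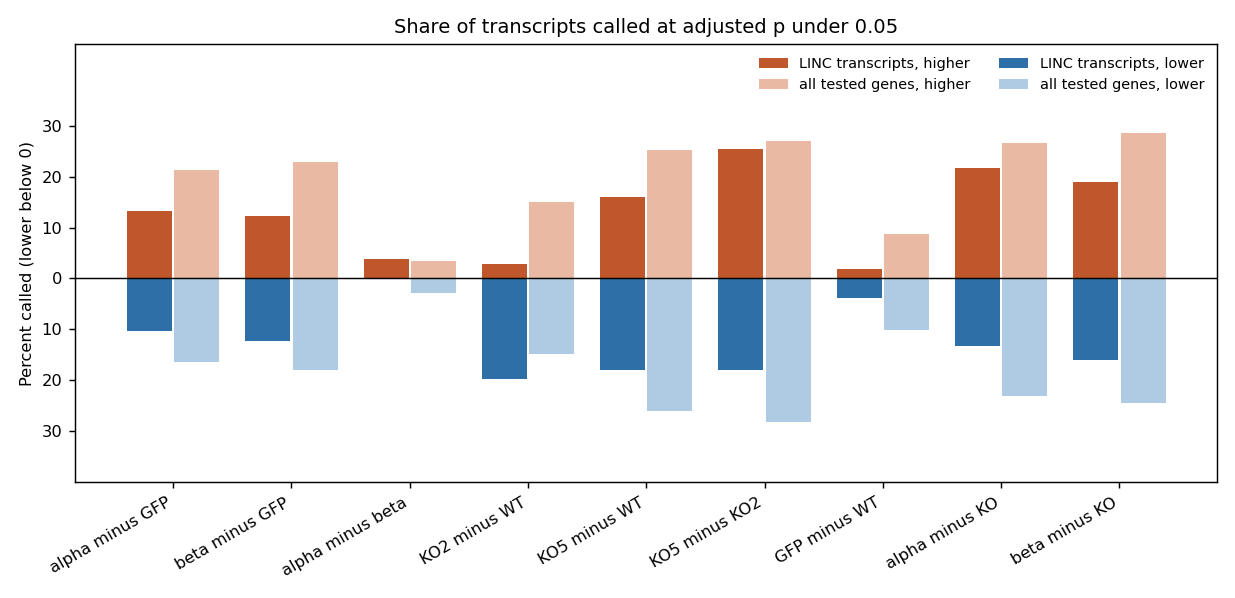
Percent of the 106 LINC transcripts (dark bars) and of all 12858 tested genes (light bars) called at adjusted p under 0.05 in 9 comparisons, with rises drawn above 0 and falls below. In KO2 against WT, 2.83% of the LINC transcripts rose and 19.8% fell, where all genes were near 15.1% and 14.9%.

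The share called among the LINC transcripts was below that of all genes in most comparisons, while their fold changes were wider. The median size of the log2 fold change was 0.298 for the members and 0.133 for all genes with alpha, 0.245 and 0.146 with beta, 0.196 and 0.098 in KO2, and 0.287 and 0.159 in KO5. With GFP against wild type, where few members were called, it was 0.145 for the members and 0.091 for all genes. The members had far fewer reads, as given above, and the part of depth in these shares and in the wider fold changes was not tested. Among the 75 members with at least 300 reads the share called was 26.7% with alpha, 28% with beta, 26.7% in KO2 and 38.7% in KO5, against 23.6%, 24.5%, 22.6% and 34% of all 106. In all, 70 members were called in at least 1 of the 9 comparisons and 36 in none. The matching share of all tested genes over the 9 comparisons is not given here. Nothing about the members as a group is therefore read from this count.

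Knockout against wild type and overexpression against GFP share no library, so their lists of members could be set side by side. Of the 36 members lower in KO2 or KO5, 11 (30.6%) were among the 16 higher with alpha or beta (68.8% of those 16): LINC00346, LINC00460, LINC00657, LINC00664, LINC00665, LINC00667, LINC00674, LINC00999, LINC01234, LINC01468 and LINC01534. Of the 20 higher in a knockout, 7 (35.0%) were among the 15 lower with a PRDM1 form (46.7% of those 15): LINC00152, LINC00326, LINC00623, LINC00641, LINC00998, LINC01106 and LINC01123. Over all tested genes the matching shares were 36.3% of the genes lower in a knockout and 47.3% of those higher with a form, and 29.9% of the genes higher in a knockout and 48.7% of those lower with a form. Members that moved the same way in both numbered 3 in the rising lists (LINC00657, LINC01116 and LINC01296) and 5 in the falling lists (LINC00173, LINC00176, LINC00326, LINC01106 and LINC01204). Over all genes, 26.7% of those higher and 20.5% of those lower in a knockout moved the same way with a form. LINC00657, LINC00326 and LINC01106 stand in opposite lists because KO2 and KO5 moved them in opposite directions. The overexpression calls of LINC00657, LINC00667, LINC00674 and LINC00999 were each lost under some alternative. These counts were not tested against chance.

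**Figure D3:**
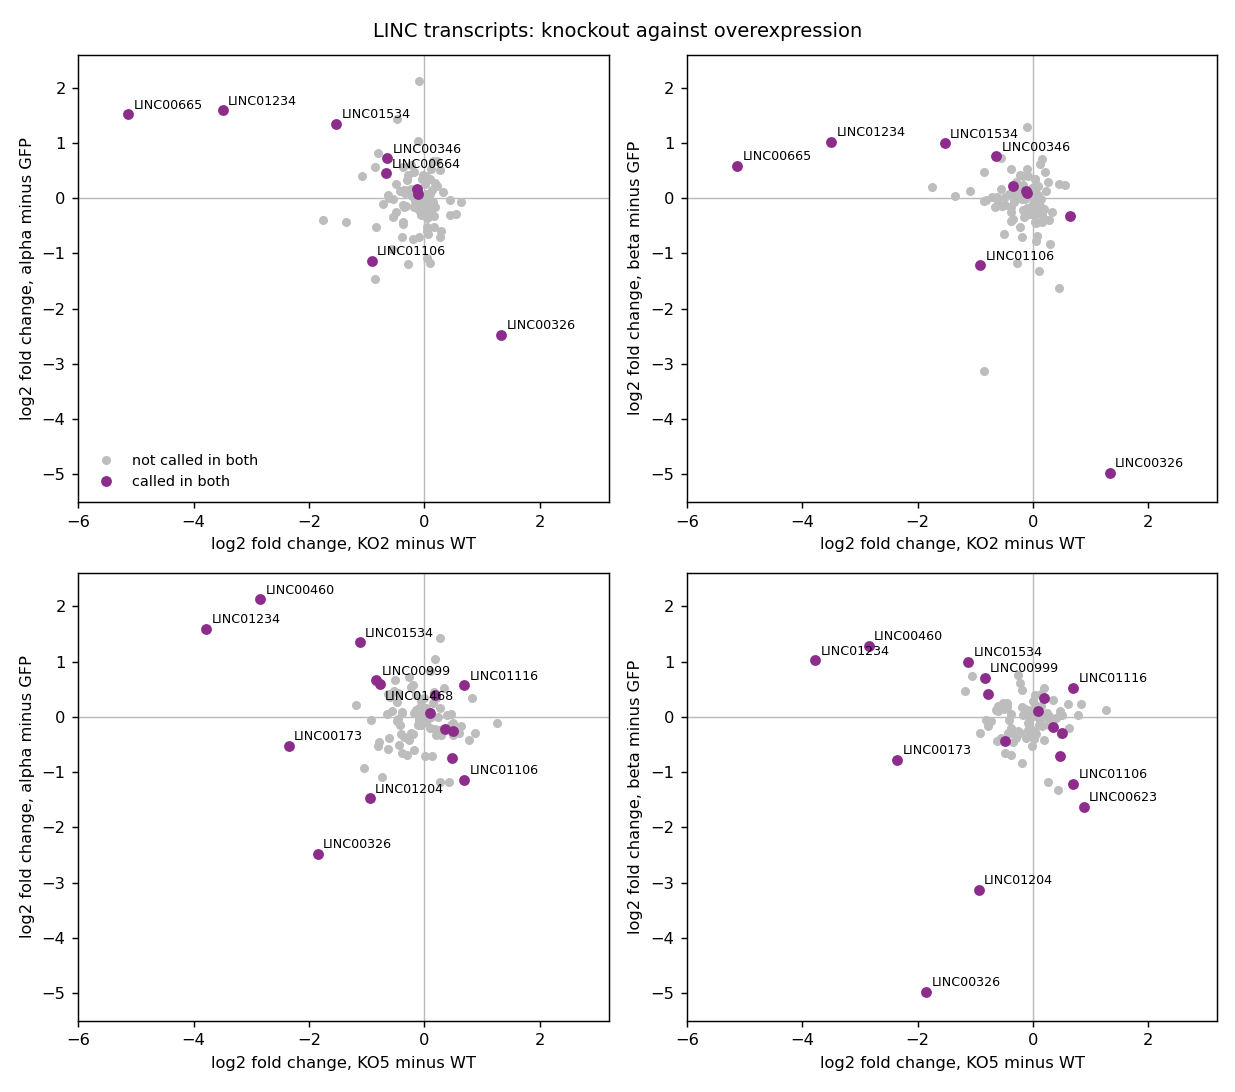
Log2 fold changes of LINC transcripts in a knockout against WT (horizontal) and with a PRDM1 form against GFP (vertical), 1 point per transcript. Purple points were called at adjusted p under 0.05 in both. LINC00665 has no point in the KO5 panels because KO5 had 0 reads. LINC01234 and LINC01534 lie at the upper left in every panel, and LINC00326 changes side between the KO2 and KO5 panels.

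The deposited comparisons by the authors set each PRDM1 form against knockout, and the same contrast was fitted here with KO2 and KO5 weighted equally. By the fit, alpha was above knockout for 23 members (21.7%) and below for 14 (13.2%), beside 26.6% and 23.1% of all tested genes. Beta was above for 20 (18.9%) and below for 17 (16.0%), beside 28.5% and 24.4%. The authors' deposited table for alpha called 10 higher and 3 lower and that for beta 7 higher and 4 lower, with no adjusted p for 9 and 10 members. The fit and the deposited tables called 13 members the same way with alpha and 11 with beta. The sign of the fold change was the same for 102 and 104 of the 106 members. For LINC01534 the authors' deposited table gave a log2 fold change of 2.10 with alpha (adjusted p = 5.71e-37) and 1.78 with beta, where the fit gave 2.59 and 2.24. For LINC00326 the authors' deposited table gave -0.23 with alpha (adjusted p = 0.244) and -0.22 with beta (adjusted p = 0.212), where the fit gave -2.78 and -5.28. Whether the deposited values were shrunken is not stated, and KO2 and KO5 lie on opposite sides of wild type for LINC00326, as given above.

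Some members lie beside a coding gene that moved with them. In RefSeq, LINC00665 has ZFP14 as its nearest coding gene, LINC01534 overlaps ZNF567, and both coding genes encode KRAB zinc finger proteins of chromosome 19. ZFP14 had 21.3 and 22.3 CPM in wild-type cells, 13.1 and 14.4 in KO2, 13.8 and 14.3 in KO5, 25.1 and 25.1 in GFP cells, 45.7 and 44.6 in alpha cells and 40.2 and 41.4 in beta cells. Its log2 fold changes were -0.64 ± 0.06 in KO2, -0.62 ± 0.07 in KO5, 0.85 ± 0.06 with alpha and 0.71 ± 0.06 with beta. No value overlapped the control, and the fold in the knockouts was smaller than that of LINC00665.

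ZNF567 fell by 0.66 in KO2 and by 0.39 in KO5 on the log2 scale and rose by 0.88 ± 0.05 with alpha and by 0.67 ± 0.05 with beta. ANKRD10, the nearest coding gene to LINC00346, had 27.9 and 28.8 CPM in GFP cells, 44.9 and 43.5 in alpha cells and 42.0 and 42.7 in beta cells (0.65 ± 0.06 and 0.59 ± 0.06), and fell by 0.28 in KO2. SLC12A2, the sodium, potassium and chloride cotransporter gene that starts head to head with LINC01184, changed by -0.95 ± 0.04 in KO2, where LINC01184 changed by -0.61 ± 0.16. In other cases the neighbour did not follow. EFNB2, the nearest coding gene to LINC00460, was higher in KO5 (0.30 ± 0.07), where LINC00460 fell, and lower with beta (-0.24 ± 0.09), where it rose. EYA4, nearest to LINC00326, had too few reads to be tested.

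Counted over the called members whose nearest coding gene was tested, the neighbour was itself called in 7 of 17 cases with alpha, all 7 in the member's direction, and in 9 of 16 with beta, 7 in the same direction. In KO2 it was called in 10 of 20 cases, 8 in the same direction, and in KO5 in 12 of 23, with 6 in the same direction and 6 in the opposite one. Of all tested genes, 37.5% were called in either direction with alpha, 40.9% with beta and 51.2% in KO5, and 3857 of the 12858 were in KO2, and nothing about neighbours as a group is read from these counts. Of the 106 members, 13 overlap a coding gene in RefSeq, 9 of them on the opposite strand, where strand use in the counting matters as for LINC01534.

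**Figure D4:**
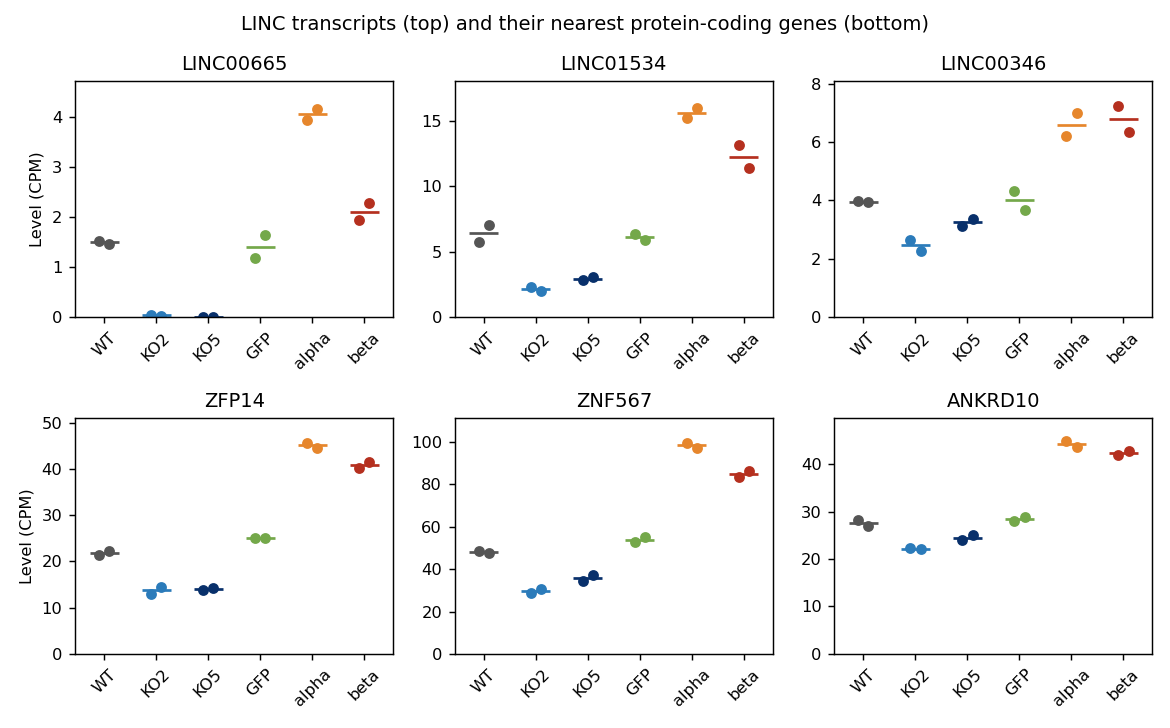
Levels in CPM (vertical axes, linear, from 0) of LINC00665, LINC01534 and LINC00346 (top) and of their nearest protein-coding genes ZFP14, ZNF567 and ANKRD10 (bottom) in each library, by group. Points are libraries and bars the means of 2 libraries. In each panel the alpha and beta libraries lie above GFP and the KO2 libraries below WT.

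RefSeq now lists 8 of the 106 as protein-coding, among them SMIM30 (LINC00998), SMIM26 (LINC00493), NBDY (LINC01420) and MTLN (LINC00116), which encode small proteins of membranes, mitochondria or, for NBDY, of RNA decay granules. LINC00998 had 71.5 and 68.4 CPM in wild-type cells, 63.1 and 68.5 in KO2, 94.8 and 98.7 in KO5, 75.6 and 78.3 in GFP cells, 63.5 and 65.8 in alpha cells and 61.6 and 63.5 in beta cells. KO5 thus stood above all other libraries, and the changes against GFP were -0.25 ± 0.05 with alpha and -0.29 ± 0.05 with beta (adjusted p = 2.94e-05 and 1.56e-06, edgeR). LINC01420 was slightly higher in KO5 (0.24 ± 0.07, adjusted p = 0.00142), and LINC00116 was within 8.66 to 11.7 CPM throughout. LINC00493 was lower with alpha (-0.19 ± 0.06, adjusted p = 0.0152), which did not hold on leaving out GFP replicate 2, alpha replicate 1 or alpha replicate 2 (adjusted p = 0.136, 0.0838 and 0.06). Of the 8, 1 was higher and 2 lower with alpha, 2 were lower with beta, 1 was lower in KO2, and 2 were higher and 3 lower in KO5. Of all tested genes, 37.5% were called in either direction with alpha, 40.9% with beta and 51.2% in KO5. In KO2, 3857 of the 12858 were called. Nothing about the 8 as a group is read from these counts.

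Some LINC transcripts often studied in carcinomas were absent or nearly so in RKO cells, LINC00662 was steady, and others were called in some comparison. LINC00473 had 0 reads, LINC00958 had 5 and LINC00511 had 21 over all libraries. LINC00662 stayed between 1.52 and 2.64 CPM, and no comparison called it. LINC00941 was at 3.66 and 2.91 CPM with GFP and at 2.08 and 2.08 with alpha and 2.05 and 1.99 with beta, with the lost calls given above. LINC00667 fell in KO2 (-0.35 ± 0.07, adjusted p = 6.07e-05, edgeR), from 21.6 and 19.4 to 16.3 and 14.7 CPM.

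For comparison, other noncoding classes were counted by symbol. Of 268 antisense genes tested, 17 rose and 27 fell with alpha, 13 and 47 with beta, 10 and 20 in KO2, and 24 and 23 in KO5. Of the 18 SNHG genes, which host small nucleolar RNAs, 1 rose and 3 fell with alpha, 1 and 7 with beta, 1 and 2 in KO2, and 4 and 6 in KO5. Among 26 well studied long noncoding RNAs, 3 rose and 8 fell with alpha, 5 and 5 with beta, 3 and 5 in KO2, and 10 and 3 in KO5. The shares of all tested genes called in each direction are those given above for each comparison. TUG1 rose by 0.29 ± 0.04 with alpha, ZFAS1 changed by -0.20 ± 0.04 and CRNDE by -0.51 ± 0.12. LINC-PINT, a p53-induced transcript without a LINC number, changed by -1.10 ± 0.10 with alpha and -0.93 ± 0.10 with beta, by -0.36 ± 0.07 in KO2 and by 0.62 ± 0.07 in KO5. UCA1, a transcript first described in bladder carcinoma, was 5.45-fold lower in KO2 than in wild type (95% counting interval 3.53 to 8.77) and 32.1-fold lower in KO5 (10.8 to 157, from 3 reads), with adjusted p = 1.59e-08 and 1.97e-11 in edgeR. Against GFP, UCA1 was not called with alpha (0.12 ± 0.27, adjusted p = 0.777, edgeR) or with beta (0.11 ± 0.27, adjusted p = 0.776).

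The tested genes whose pattern was most like that of LINC00460 over the 6 group means of log2 CPM were LAGE3 (Pearson r = 0.996), ZCCHC17 (0.993) and MSX1 (0.992). For LINC00326 they were UXT (0.996), ZNF213-AS1 (0.990) and C9orf163 (0.990). These are the 3 highest of all genes tested over only 6 points and are given as a description. Their ranges were narrow beside that of LINC00326: UXT ran from 4.69 to 5.19 in log2 CPM.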

How the data were processed

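Polyadenylated RNA of 12 RKO libraries, 2 in each of 6 groups taken from the labels, was analysed. The tools TopHat, Bowtie2 and Cufflinks and the build hg19 are listed, per the submitters' processing notes; the read counter, its use of strand and the tools' versions are not given in the sources used here. The authors deposited whole-read counts per gene symbol for each library, with no normalization. The authors also deposited tables of each PRDM1 form against knockout, with log2 fold changes and adjusted p-values. A further deposited table repeated the beta table line for line and stayed out. The 2 count entries that name no gene, reads without a gene (9.13% to 10.8%) and ambiguous reads (1.66% to 1.75%), were left out.

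Counts were fitted in R 4.3.3 with edgeR 4.0.16 (filterByExpr at default settings, TMM scaling, robust quasi-likelihood test, 1 mean per group over all 12 libraries). Calls are at an adjusted p under 0.05 (Benjamini-Hochberg) over 12858 genes. Standard errors are Wald errors. CPM is a gene's reads in parts per 1000000 of the library's reads on genes, and log2 CPM used a prior count of 2. Ratios of low counts carry 95% exact binomial intervals, which like floors of 3 counts cover counting error only. The fit was tested on simulated data.

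The members and lists were chosen with earlier results of these data known. Named members were those called with 1 CPM or more on average in the higher group and no overlap, up to 8 in each direction, the 10 with the most reads, and a fixed list of often studied or small-protein LINC symbols. The text gives part of them. Replicate numbers did not pair the libraries (correlations of deviations -0.065 to 0.056 over 15 group pairs). Members were matched to RefSeq names of GRCh38.p14, 75 by symbol and 31 by an older symbol, and no hg19 coordinates were used.

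The alternatives were DESeq2 size factors, the DESeq2 1.42.0 Wald test, no low-count filter, only the compared groups, a replicate block, a minimum of 300 reads, and leaving out each library.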

Additional observations from a re-analysis of the deposited data

Results flagged for a closer look

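The responses to the PRDM1 forms differed for 4 members by the direct test of alpha against beta (edgeR, adjusted over all genes): the log2 difference of alpha minus beta was 2.50 for LINC00326, 0.93 for LINC00665, 0.62 for LINC00664 and 0.35 for LINC01534. Of these, LINC00664 kept its call under every alternative run.

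The knockout derivatives differed from each other in the named members as follows, as log2 differences of KO5 minus KO2. KO5 was higher for LINC00883 (1.63), LINC01106 (1.61), LINC00857 (1.21), LINC01116 (1.07), LINC01355 (0.94), LINC00664 (0.83), LINC00963 (0.82) and LINC01021 (0.81). It was lower for LINC00326 (-3.18), LINC00173 (-2.40), LINC00999 (-0.99), LINC00115 (-0.90), LINC01399 (-0.67), LINC01521 (-0.65), LINC00176 (-0.64) and LINC00982 (-0.60). The calls of LINC00982, LINC01355 and LINC01399 were lost under some alternative, and those of the other 13 were kept. Clone, culture and library preparation cannot be told apart from the knockout derivative in this design.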

How the results depend on the processing

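No called result changed direction under any alternative run. The counts below are of members alone, and those of all tested genes under the same settings are not given here. A loss of calls is therefore not read as particular to the members. With the DESeq2 Wald test fewer members were called: 6 lower with alpha, 6 higher with beta, 2 higher in alpha against beta, 13 lower in KO2, 10 higher and 11 lower in KO5, 10 lower in KO5 against KO2, 1 higher and 1 lower with GFP against wild type, and 15 higher and 9 lower with alpha against knockout. A minimum of 300 reads put the share of members called between KO5 and KO2 at 54.7%, from 43.4% in the main setting. This was close to the 54.9% of all tested genes called in that comparison, to which no such minimum was applied. Leaving out 1 library at a time gave 5 to 12 lower with alpha, 5 to 11 higher and 8 to 14 lower with beta, 2 to 4 higher and 0 to 1 lower in alpha against beta, 11 to 14 higher and 12 to 23 lower in KO5, 10 to 14 lower in KO5 against KO2, 0 to 2 higher and 1 to 6 lower with GFP against wild type, 9 to 15 lower with alpha against knockout and 13 to 20 higher with beta against knockout. In these fits the lone library of a group is assumed to vary like the other groups, and fewer libraries enter. The lowest of these counts came without KO5 replicate 1 for KO5 against KO2 (11 without KO2 replicate 1), without alpha replicate 1 for alpha against knockout, without beta replicate 2 for alpha higher than beta, without wild-type replicate 2 for GFP against wild type, and without beta replicate 2 for beta against knockout.

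Values of single transcripts were compared for a part of the pairs of member and comparison, and not for all. Of those refitted on all libraries, 1172 stayed on their side of the threshold, 50 lost a call and 8 gained one, while DESeq2 gave no adjusted p for 10. With a library left out, 985 stayed, 113 lost a call and 10 gained one. With the replicate number as a block, which the libraries did not bear out, 13 rose and 11 fell with alpha, 13 and 13 with beta, 3 and 21 in KO2 and 16 and 18 in KO5. Depth limits the members with few reads: 33 had under 10 reads in some library.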
